A study of Mus musculus with 6 samples.

Results

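Fatty acid transport proteins (the Slc27a family) and long-chain acyl-CoA synthetases (the Acsl family) were examined in fat of 32-week-old mouse offspring. The family was taken as 8 genes, Slc27a1, Slc27a2, Slc27a3, Slc27a4, Acsl1, Acsl3, Acsl4 and Acsl5. A gene was included through a probe set (a group of array probes read out as 1 value) that the platform annotation gives to that gene alone, and where a gene had several, the one brightest on average stood for it. This left 6 of the 8 genes among the 22180 genes tested. The 1 probe set annotated to Acsl3 is shared with Utp14b, and no probe set in the annotation used here names Acsl1. Mothers of 3 offspring samples were fed a chromium restriction diet, with 1 array per sample. The other 3 samples are labelled control diet, which was taken to be the diet of their mothers. The labels name no strain, sex, fat depot or diet of the offspring themselves. They also do not say whether a group's 3 samples are separate animals, so each p-value reflects only how these samples spread, which may be technical.

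Long-chain fatty acids released from lipoproteins enter the adipocyte with the help of transport proteins and are joined to coenzyme A, which traps them in the cell and makes them usable. Slc27a proteins take part in uptake and also have acyl-CoA synthetase activity, mainly for very long chains. Acsl proteins carry out the same activation on long-chain fatty acids at different membranes, and the acyl-CoA then goes to triglyceride synthesis, phospholipid remodelling or oxidation. Slc27a1 is a main fatty acid transport protein of fat and muscle, whereas Slc27a2 and Slc27a5 are known from liver.

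Promoter windows are shown for the 3 family genes whose values spanned more than 1 log2 unit over the arrays, Slc27a1, Slc27a2 and Acsl5. They are RefSeq windows of build GRCm38.p6, running from 250 bases before to 50 bases after an annotated transcription start. The Slc27a1 window is chr8:71568621-71568920 (plus strand), the most upstream of the 3 windows listed for that gene. The Slc27a2 window is chr2:126552774-126553073 (plus strand) and the Acsl5 window is chr19:55253119-55253418 (plus strand). Capitals mark matches on either strand. The motifs searched were the nuclear receptor half-site (AGGTCA), the GC box (GGGCGG), the CCAAT box (CCAAT), the TATA box (TATAAA) and the E-box (CACGTG), and none of these contains another.
Slc27a1: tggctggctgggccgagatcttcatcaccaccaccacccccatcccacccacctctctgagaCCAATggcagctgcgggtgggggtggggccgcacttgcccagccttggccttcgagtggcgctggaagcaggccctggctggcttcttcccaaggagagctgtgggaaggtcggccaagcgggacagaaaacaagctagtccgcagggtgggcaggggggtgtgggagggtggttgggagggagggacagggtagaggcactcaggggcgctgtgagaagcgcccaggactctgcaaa
Slc27a2: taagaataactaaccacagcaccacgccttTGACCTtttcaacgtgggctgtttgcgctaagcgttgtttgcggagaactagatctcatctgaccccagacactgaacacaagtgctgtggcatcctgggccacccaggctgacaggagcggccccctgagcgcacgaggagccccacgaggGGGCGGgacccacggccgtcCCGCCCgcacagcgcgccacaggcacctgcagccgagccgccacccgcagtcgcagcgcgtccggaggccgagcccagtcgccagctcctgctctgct
Acsl5: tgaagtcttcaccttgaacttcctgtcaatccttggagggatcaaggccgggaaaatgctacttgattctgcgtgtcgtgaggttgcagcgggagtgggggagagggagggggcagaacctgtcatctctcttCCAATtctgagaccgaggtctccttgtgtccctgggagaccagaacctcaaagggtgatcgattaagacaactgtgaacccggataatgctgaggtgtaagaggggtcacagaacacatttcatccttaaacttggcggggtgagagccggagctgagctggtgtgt
The Slc27a2 window held 1 half-site and 2 GC boxes, and the Slc27a1 and Acsl5 windows shown each held 1 CCAAT match. Of the Slc27a1 windows not shown, the middle one held 1 GC box. The most downstream one held 3 GC boxes and 1 CCAAT match. Among 32851 RefSeq windows of 300 bases, 16.3% held the half-site, 35.7% the GC box, 37.4% the CCAAT box, 13.6% the TATA box and 7.15% the E-box. None of the 11 windows of the 8 family genes held the TATA box, and the E-box was found once, in the most downstream Slc27a1 window. A match describes the letters in the window and was not tested for binding.

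The deposited table gave 33793 probe sets, with array medians of 5.44 to 5.57 on what was taken to be a log2 scale, and correlations between arrays of 0.95 to 0.99. Most values were written with no more digits than a single-precision number needs, but 183 values in 64 probe sets carried more, and these probe sets are referred to as rows with extra digits. No label says how such rows came about. In limma 43 of 22180 genes (0.194%) passed an adjusted p of 0.05, and 40 of these 43 lay in rows with extra digits, which made up 52 of the genes tested. Liver transcripts stood out on chromium restriction arrays 1 and 3, where the mean of 7 hepatocyte markers was 11.33 and 10.90 against 6.55 on array 2 and 6.56 to 6.94 in controls. Intestinal epithelium markers (7 genes) averaged 7.29 on chromium restriction array 2, 6.15 and 5.96 on arrays 1 and 3, and 5.27 to 5.47 in controls. The higher mean on arrays 1 and 3 came mainly from Fabp2 (7.30 and 7.31) and Apoa4 (10.34 and 9.47). Sis, Muc13, Cdh17 and Krt20 lay near the controls on arrays 1 and 3 and were higher on array 2. Sis, for example, stood at 4.62, 7.09 and 4.55 on arrays 1, 2 and 3. Brown adipocyte markers (5 genes) averaged 8.59 and 6.60 on control arrays 1 and 3, and 5.39 to 5.69 on the other 4. Adipocyte markers (7 of 8 measured) averaged 11.65 to 11.75 in controls and 11.63 to 11.73 in the chromium restriction group, but this includes Adipoq and Pparg, which lie in rows with extra digits and moved in opposite directions. Over the 5 adipocyte markers in ordinary rows the mean was 11.64, 11.82 and 11.84 on chromium restriction arrays 1, 2 and 3, below each control (11.87, 11.88 and 12.03). Macrophage markers (6 genes) averaged 9.62 on chromium restriction array 1 and 8.53 to 9.13 elsewhere. Mesothelial markers ranged from 6.41 to 7.89, skeletal muscle markers from 5.71 to 6.33 and kidney markers from 4.82 to 5.09.

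**Figure D1:**
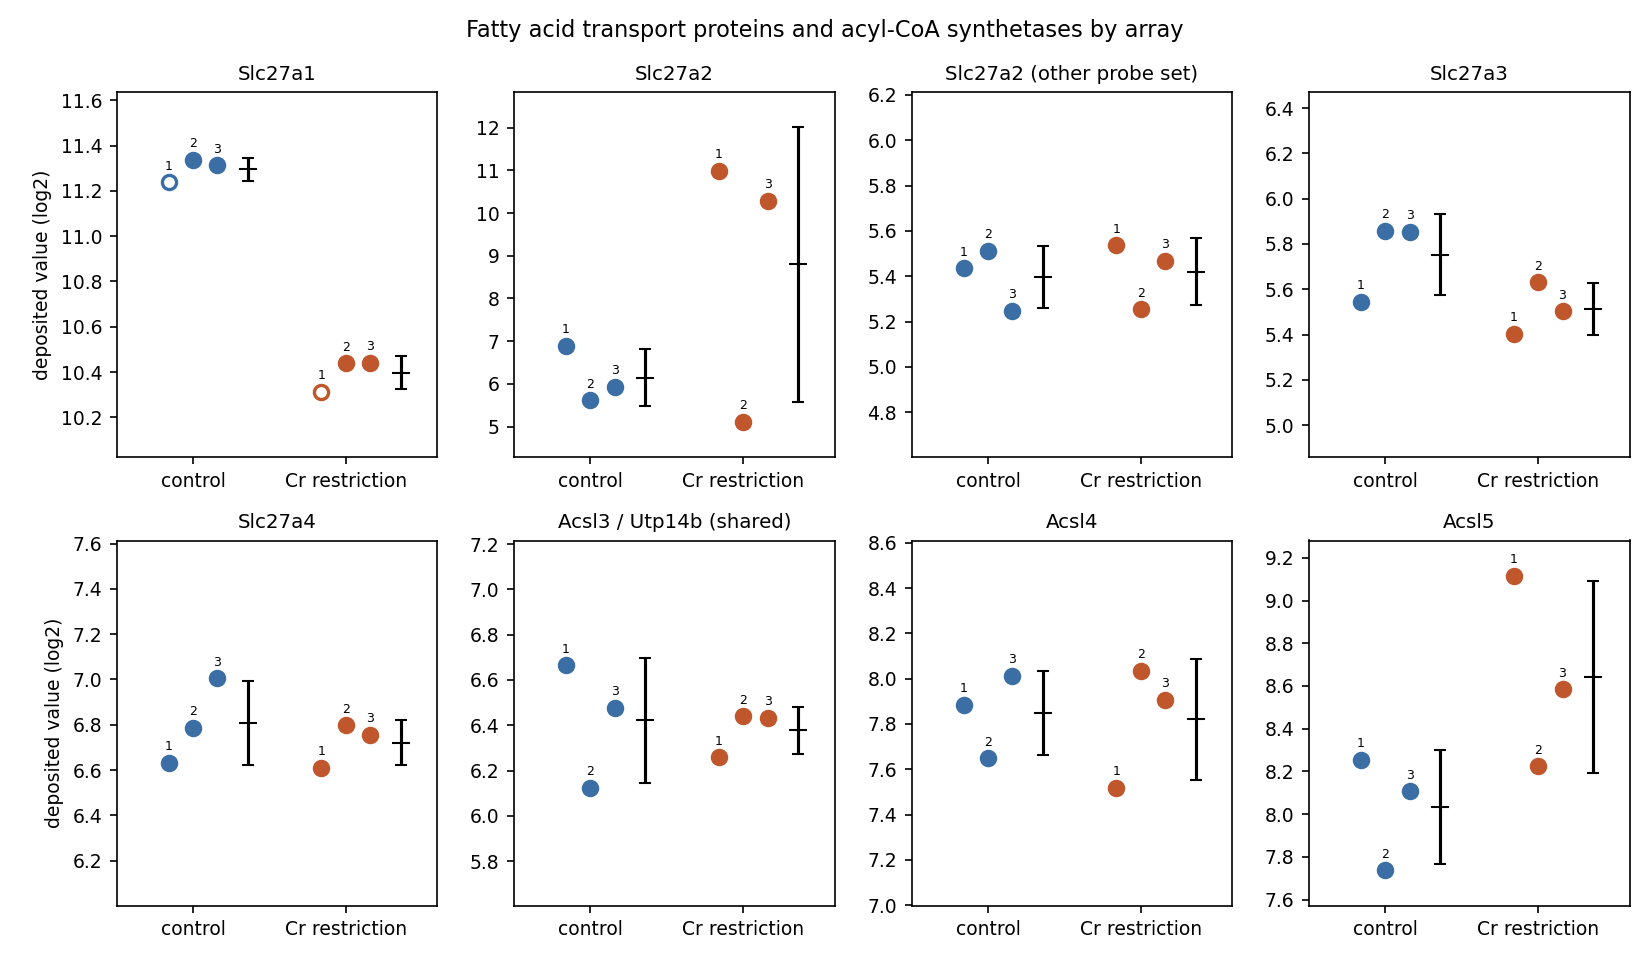
Deposited log2 value of each family probe set on each array, with replicate numbers beside the points and the mean ± SD (n = 3) at the right of each group; open circles are values written with extra digits, and the vertical scale differs between panels. The Slc27a1 groups lie apart at about 10.4 and 11.3, while Slc27a2 is high on chromium restriction arrays 1 and 3 and the other panels overlap.

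Of the 6 measured family genes, Slc27a1 was the 1 that passed the test, and it was listed lower in the chromium restriction group. Slc27a1 stood at 10.31, 10.44 and 10.44 on chromium restriction arrays 1, 2 and 3, and at 11.24, 11.34 and 11.31 on control arrays 1, 2 and 3. The groups did not overlap and lay 0.80 apart at their nearest values. Lower values without overlap were found in 6.06% of all genes. The mean was 10.40 ± 0.07 against 11.30 ± 0.05 (log2, SD, n = 3 per group). The log2 difference was -0.90 ± 0.07 (limma, SE), a 1.86-fold lower value, with an adjusted p of 0.00950, against 0.104% of all genes called lower. In bulk tissue, fewer cells of a type and less RNA per cell cannot be told apart.

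The Slc27a1 probe set is a row with extra digits, and its call is given as a property of the deposited values. The digits were found in 2 of its 6 values, those of chromium restriction array 1 and control array 1, which were the lowest of their groups. The remaining 4 values, 10.44 and 10.44 against 11.34 and 11.31, gave a difference of -0.88 ± 0.09 (limma, SE), with an unadjusted p of 0.000463 and an adjusted p of 0.772, in a fit in which 0 genes passed (1283 at an unadjusted p under 0.05). Every one of the 23 genes called lower lay in a row with extra digits. Group differences had a median size, on the log2 scale, of 1.07 over the 52 such genes and 0.0835 over the others. On chromium restriction array 2 the hepatocyte marker mean was 6.55, against 6.56 to 6.94 in controls. That array had the highest intestinal marker mean, 7.29 against 5.27 to 5.47 in controls. Slc27a1 was 0.86 below the control mean on array 2, and 0.98 and 0.85 below it on arrays 1 and 3. The mean of the 5 adipocyte markers in ordinary rows was also lower on each chromium restriction array than on any control. Taken singly, each of these 5 genes overlapped between the groups. The brown adipocyte marker mean was highest on control array 1. The part of the intestinal, adipocyte or brown adipocyte marker sets in the Slc27a1 difference was not tested.

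The direction of the Slc27a1 difference was the same under all 17 alternatives that could be fitted, with values of -0.93 to -0.86. Leaving out arrays could not turn the direction, as the groups did not overlap, and several alternatives change only the SE or adjusted p. The call held under 9 of the 17. Adjusted p was 0.0619 without control array 1, 0.0925 without control array 2, 0.0894 without control array 3 and 0.0759 without chromium restriction array 3. It was 0.0861 with liver genes as a covariate and 0.204 without both liver-rich arrays.

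**Figure D2:**
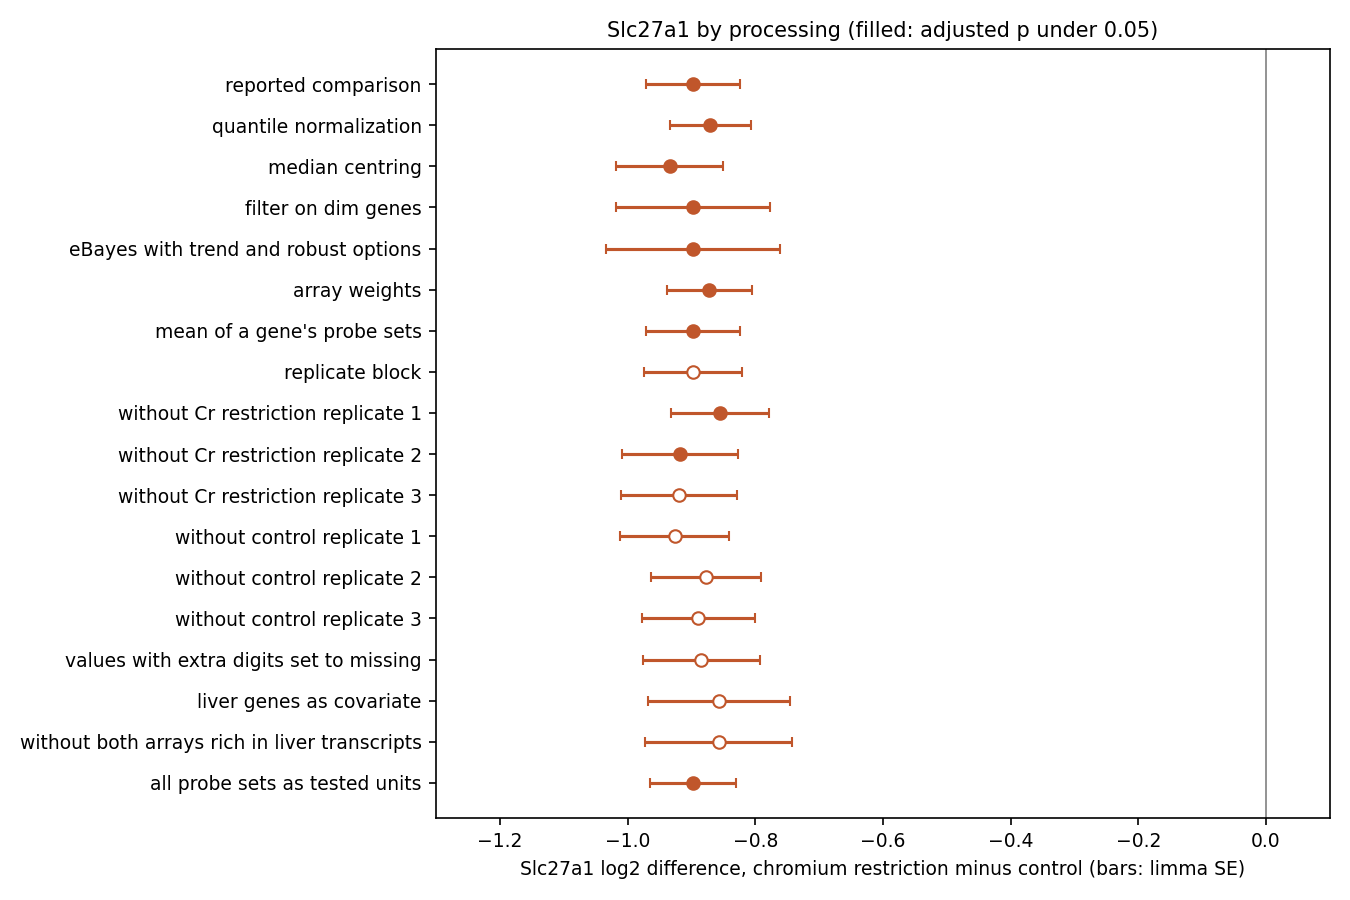
Log2 difference of Slc27a1, chromium restriction minus control, in the reported comparison and under 17 alternatives, with limma SE bars; filled points had an adjusted p under 0.05. The points lie between -0.93 and -0.86, and 8 of the 17 alternatives are open.

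Slc27a2 varied most of the family, and it did so within the chromium restriction group. Slc27a2, a very-long-chain acyl-CoA synthetase of liver and kidney, stood at 10.99, 5.11 and 10.28 on chromium restriction arrays 1, 2 and 3 and at 6.89, 5.61 and 5.93 on control arrays 1, 2 and 3. Arrays 1 and 3 lay above every control and array 2 below every control, so the groups overlapped. The group difference of 2.65 ± 1.51 (log2, SE, 95% interval -1.02 to 6.32) did not pass, with an adjusted p of 0.880 in limma. Both high arrays were those rich in liver transcripts. With the 7 liver genes as covariate the difference was -0.77 ± 0.56, and without those arrays it was -1.04 ± 0.51. These fits are not separate checks. The liver mean mainly sets arrays 1 and 3 apart from the rest, so the covariate leaves mostly array 2 against the controls. Without chromium restriction array 2 it was 4.49 ± 0.41, with an adjusted p of 0.00564. Among the controls Slc27a2 was highest on array 1, the array with the highest brown adipocyte marker mean; the part of those cells in this value was not tested.

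A second probe set of Slc27a2 did not show this pattern. It stood at 5.54, 5.25 and 5.47 on chromium restriction arrays and 5.43, 5.51 and 5.25 on control arrays, in order of replicate number. Its difference was 0.02 ± 0.11 (SE, in a fit of all probe sets), and it lay below the array median on 6 of 6 arrays. No label states a background level, so whether this probe set measured its transcript is not known. Slc27a5, a bile acid and very-long-chain acyl-CoA synthetase of liver, had a pattern like that of the first Slc27a2 probe set. It stood at 8.26, 5.08 and 7.74 on chromium restriction arrays 1, 2 and 3 and at 5.38, 5.03 and 4.93 on the controls. Its difference of 1.91 ± 0.80 (SE) had an adjusted p of 0.817, and without both liver-rich arrays it was -0.04. Without chromium restriction array 2 the Slc27a5 difference was 2.89 ± 0.21 (SE), with an adjusted p of 0.00206.

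**Figure D3:**
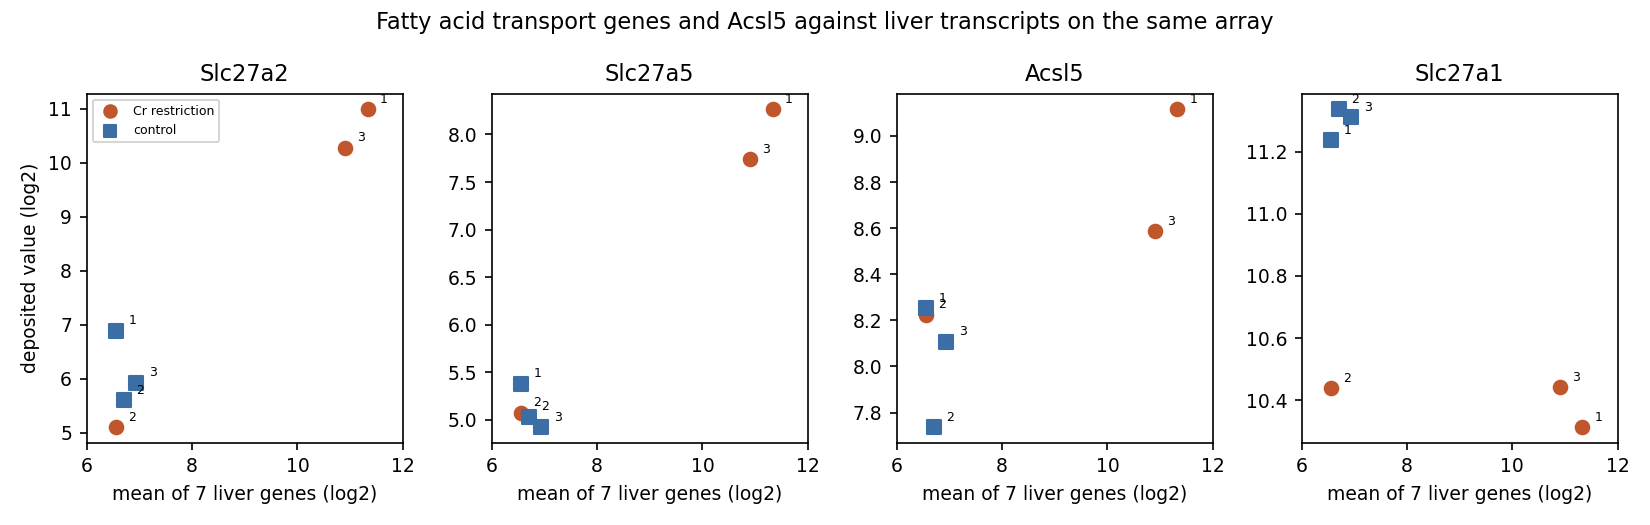
Deposited log2 values of Slc27a2, Slc27a5, Acsl5 and Slc27a1 on each array against the mean of 7 hepatocyte markers on the same array; numbers are replicates, circles chromium restriction and squares controls, and vertical scales differ. Slc27a2 and Slc27a5 are high on the arrays at 11.33 and 10.90 of the liver mean, whereas Slc27a1 is about 10.4 on all 3 chromium restriction arrays.

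Slc27a3 and Slc27a4 differed little between groups. Slc27a3, which has acyl-CoA synthetase activity, stood at 5.40, 5.63 and 5.50 on chromium restriction arrays and at 5.55, 5.86 and 5.85 on controls. Its 2 lowest values were from the chromium restriction group, and the third lay above control array 1, so the groups overlapped. The difference of -0.24 ± 0.12 (SE, 95% interval -0.52 to 0.04) had an adjusted p of 0.829 in limma. Slc27a4, a transport protein widely expressed and needed in skin, stood at 6.61, 6.80 and 6.76 on chromium restriction arrays and 6.63, 6.79 and 7.005 on controls. The groups overlapped, with control array 3 above every chromium restriction array, and the difference was -0.09 ± 0.12 (SE, 95% interval -0.37 to 0.19).

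Acsl5, a synthetase known from intestine, liver and fat, had a larger group difference than Acsl4, the other Acsl gene with a probe set of its own, but did not pass. It stood at 9.12, 8.22 and 8.59 on chromium restriction arrays 1, 2 and 3 and at 8.25, 7.74 and 8.11 on control arrays 1, 2 and 3. Chromium restriction arrays 1 and 3 lay above every control, and array 2 lay just below control array 1. The difference was 0.61 ± 0.25 (SE, 95% interval 0.0082 to 1.21), with an unadjusted p of 0.0478 and an adjusted p of 0.817 in limma. At that unadjusted level 5.95% of all genes passed. The Acsl5 difference was 0.37 ± 0.19 (SE) without chromium restriction array 1 and 0.82 ± 0.22 without array 2, and neither passed (adjusted p = 0.998 and 0.210). Arrays 1 and 3 were those rich in liver transcripts, and with liver genes as a covariate the difference was 0.20 ± 0.25. On array 2, which had the highest intestinal marker mean, Acsl5 was 0.19 above the control mean.

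Acsl4, a synthetase that prefers arachidonic acid and shapes membrane phospholipids, did not separate the groups. It stood at 7.52, 8.03 and 7.91 on chromium restriction arrays and 7.88, 7.65 and 8.01 on controls. Its highest and lowest values both came from the chromium restriction group. The difference was -0.03 ± 0.16 (SE, 95% interval -0.42 to 0.36), and its sign turned under 5 of 18 alternatives. The probe set shared by Acsl3, a synthetase of the endoplasmic reticulum and lipid droplets, and Utp14b stood at 6.26, 6.44 and 6.43 on chromium restriction arrays. On control arrays it stood at 6.66, 6.12 and 6.48, which enclosed the chromium restriction values. The signal of this probe set cannot be assigned to Acsl3 or to Utp14b.

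Of the 6 genes 2 lay above and 4 below the control mean, with a median log2 difference of -0.06. Across the 22180 genes tested 9576 lay above and 12604 below, with a median of -0.02. Within the controls the 3 arrays differed by 0.10 for Slc27a1, by 0.31 to 0.52 for Slc27a3, Slc27a4, Acsl4 and Acsl5, and by 1.28 for Slc27a2. Within the chromium restriction group they differed by 0.13 for Slc27a1, and by 0.19 (Slc27a4) to 5.88 (Slc27a2) for the other measured genes. The within-group spread of Slc27a1, the only measured member in a row with extra digits, was thus the smallest of the family in both groups.

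For the 3 genes that spanned at least 1 log2 unit, the genes with the most similar profile over the 6 arrays were listed by Pearson correlation, as a description. Slc27a1 was nearest to Gfod2 (r = 0.9995) and Asah2 (r = 0.9963). Gfod2 is in an ordinary row and stood at 5.66 to 5.69 against 5.87 to 5.90, and Asah2, which encodes a ceramidase, is in a row with extra digits. Slc27a2 was nearest to Masp1 (r = 0.9982), a complement protease gene, and Dnajc12 (r = 0.9960), and Acsl5 to Raph1 (r = 0.9939) and Vpreb3 (r = 0.9914). An r of at least 0.95 was reached by 75 genes with Slc27a1, by 260 with Slc27a2 and by 47 with Acsl5.

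Genes that release, carry or bind fatty acids at uptake showed 1 call among 9 measured. Fabp3, a cytosolic fatty acid binding protein known from heart and muscle, stood at 9.88, 9.82 and 9.87 on chromium restriction arrays and 8.70, 8.79 and 8.74 on controls. The groups lay far apart relative to their spread, with a difference of 1.11 ± 0.07 (SE, adjusted p = 0.00351 in limma, where 0.0902% of all genes were called higher). With the mean of the gene's probe sets the difference was smaller, at 0.68 ± 0.07 (SE, adjusted p = 0.0273 in limma). That mean still includes the probe set called above. Fabp3 is a row with extra digits, with 3 of 6 values affected. These make up a whole group, so no difference remained once they were set to missing. Without both liver-rich arrays the Fabp3 difference was 1.08. Got2, a mitochondrial aminotransferase also described as a membrane fatty acid binding protein, differed by 0.42 ± 0.21 (SE) and did not pass. With the mean of its probe sets the Got2 difference was 0.24 ± 0.14 (SE). Cd36, the main fatty acid translocase of adipocytes, was chosen outside the rule for named genes after its value was seen and differed by -0.11 ± 0.08 (SE, adjusted p = 0.939). Of the 9 genes 3 were higher and 6 lower, with a median of -0.04.

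Other enzymes that make or split acyl-CoA showed 0 calls in limma. Among 5 further transport proteins and long-chain synthetases 4 were higher and 1 lower, and 0 had an unadjusted p under 0.05; Slc27a6, a transport protein known from heart, differed by -0.17 ± 0.10 (SE). Among 10 short- and medium-chain synthetases 7 were lower, with a median of -0.37, and 4 had an unadjusted p under 0.05, against 5.95% of all genes. Acss3, a short-chain synthetase of mitochondria, stood at 8.37, 8.89 and 8.46 on chromium restriction arrays and 9.67, 9.81 and 9.43 on controls. Its groups did not overlap, and the difference of -1.06 ± 0.17 (SE) had an adjusted p of 0.212, in an ordinary row. With trend and robust options the adjusted p of Acss3 was 0.0363, and without chromium restriction array 2 it was 0.0105. Aacs, which activates acetoacetate for lipid synthesis, differed by -0.92 ± 0.20 (SE, adjusted p = 0.547).

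Among 13 thioesterases, which release fatty acids from acyl-CoA, 6 were higher and 7 lower. An unadjusted p under 0.05 was found for 2 of them, against 5.95% of all genes. Acot2, a mitochondrial thioesterase, stood at 9.18, 9.99 and 8.85 on chromium restriction arrays and 10.81, 10.27 and 10.54 on controls (adjusted p = 0.636). Acot12, a cytosolic acetyl-CoA thioesterase of liver, stood at 7.71, 5.14 and 7.33 on chromium restriction arrays 1, 2 and 3 and at 5.02 to 5.18 in controls, again high on the liver-rich arrays. Of 6 acyl-CoA binding proteins 5 were lower, with a median of -0.11 and 1 unadjusted p under 0.05; Acbd7 differed by -0.18 ± 0.07 and the peroxisomal Acbd5 by -0.24 ± 0.11 (SE).

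Genes of triglyceride and phospholipid synthesis were mostly lower. Most of those listed encode enzymes that consume acyl-CoA, but the list also holds Lpin1, a phosphatidate phosphatase. Of 12 genes 10 were lower and 2 higher, with a median log2 difference of -0.69, and 3 were called lower. Over all genes 12604 of 22180 were lower, with a median of -0.02, and 0.104% were called lower. Called lower were Gpat4, a glycerol-3-phosphate acyltransferase (-0.93 ± 0.06, limma, SE, adjusted p = 0.00434), and Agpat3, a lysophospholipid acyltransferase (-1.48 ± 0.08, adjusted p = 0.00185). Also called lower was Dgat1, which completes triglyceride synthesis (-1.26 ± 0.14, limma, SE, adjusted p = 0.0463). All 3 lay in rows with extra digits, with 4, 3 and 2 of 6 values affected. In Agpat3 the affected values make up a whole group, so no difference remained once they were set to missing. Without the affected values the difference was -0.90 for Gpat4, from 1 array per group. For Dgat1 it was -1.17, from chromium restriction array 1 against the 3 controls. A lone array gives no spread of its own group, so these values cannot show whether either call would hold. Among the 9 genes in ordinary rows 7 were lower, with a median of -0.48 and a lowest adjusted p of 0.547. Dgat1 did not pass with quantile normalization (adjusted p = 0.0528) or without chromium restriction array 1 (adjusted p = 0.193), chromium restriction array 3 (0.260), control array 2 (0.315) or control array 3 (0.227). It also did not pass with liver genes as a covariate (0.0893) or with all probe sets as tested units (0.0686), and its difference was -1.40 to -1.17 over its alternatives. Gpat4 did not pass without chromium restriction array 3 (adjusted p = 0.0542), where its difference was -0.92. Without both liver-rich arrays the 3 differences were as large, at -0.94 for Gpat4, -1.57 for Agpat3 and -1.40 for Dgat1, while the adjusted p was 0.140, 0.0570 and 0.268.

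Genes that carry acyl-CoA into oxidation showed 0 calls in limma among 8 measured, of which 5 were lower. An unadjusted p under 0.05 was found for 4 of them, against 5.95% of all genes. Cpt2, a carnitine palmitoyltransferase of the inner mitochondrial membrane, stood at 9.41, 9.57 and 9.44 on chromium restriction arrays and 9.80, 9.90 and 9.93 on controls. The groups did not overlap, and the difference was -0.40 ± 0.08 (SE, adjusted p = 0.462). Crat, carnitine acetyltransferase, differed by -0.61 ± 0.12 (SE, adjusted p = 0.471). With the mean of its probe sets the Crat difference was -0.29 ± 0.09 (SE). Over the 63 pathway genes measured, 1 was called higher and 3 lower, each in a row with extra digits, and the count was 0 when those rows were left out, with 15 of 59 at an unadjusted p under 0.05, against 5.71% of all genes in the same fit. Without chromium restriction array 2, which leaves only the liver-rich arrays in that group, 16 of the 63 pathway genes passed in limma. In that fit 439 of all 22180 genes passed. Among the 16 were Aacs (adjusted p = 0.0168), Acot2 (0.0172), Acot12 (0.00109) and Crat (0.0252).

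**Figure D4:**
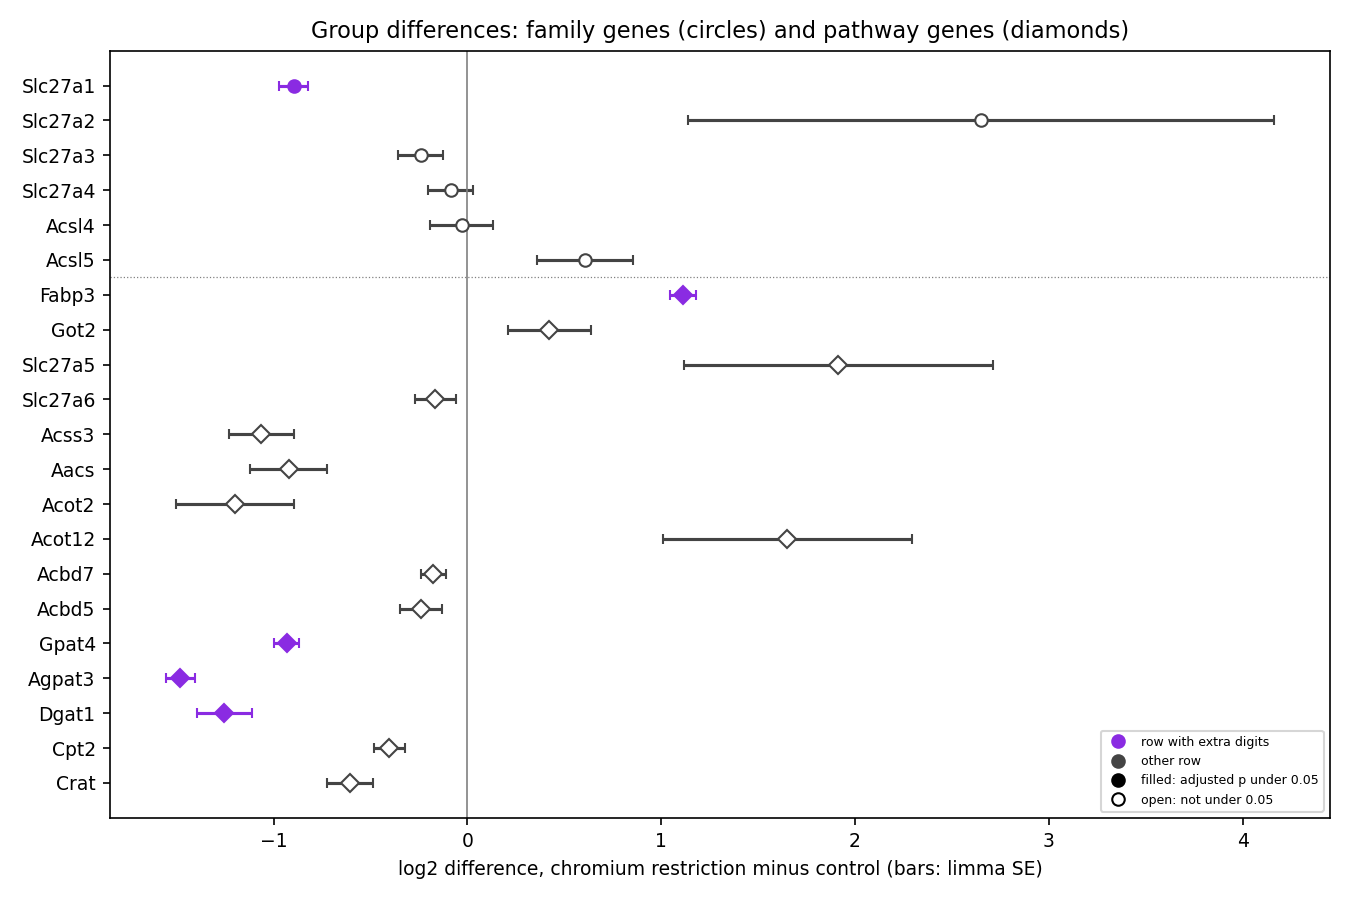
Log2 difference between groups, chromium restriction minus control, with limma SE bars, for the 6 measured family genes (circles) and the named genes of the pathway lists (diamonds); purple marks rows with extra digits and filled points an adjusted p under 0.05. The 5 filled points, Slc27a1, Fabp3, Gpat4, Agpat3 and Dgat1, are all purple.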

How the data were processed

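Total adipose RNA carried a biotin label and was read on 1-colour arrays, per the labels' protocols. The authors deposited 1 table of values, taken to be log2 from its range of 3.49 to 14.86; the sources used here state neither log base nor summarisation nor normalization, and the values were used as they stand. In the platform annotation 23521 probe sets carry 1 gene symbol, 1814 carry several and 8458 carry none, and only the first were named. A value had extra digits when its text was longer than the shortest one that gives the same single-precision number.

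Group differences (chromium restriction minus control, 3 arrays each) were fitted over 22180 genes in R 4.3.3 with limma 3.58.1 (lmFit, eBayes). Tests were two-sided, p-values were adjusted over all genes by Benjamini-Hochberg, and the fit was tested on simulated data. The number of arrays limits the precision. The family genes, lists, tests and alternatives were chosen with earlier results of these data known; no list was tested as a set. Named genes were the family, in each list those past an adjusted p of 0.05 and the 2 with the smallest p, and the 2 nearest profiles, without predicted loci, small RNAs or chemosensory receptors. Alternatives changed normalization, filter, variance model, weights, probe sets, block and arrays used.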

Additional observations from a re-analysis of the deposited data

How the results depend on the processing

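With 3 arrays per group the count of called genes (43) moved between 24 and 439 when 1 array was left out, the highest without chromium restriction array 2; the family count (1) moved between 0 and 2 and the pathway count (4) between 2 and 16. The labels do not say whether the same replicate numbers in both groups pair the samples. Correlations of deviations between arrays of the same number were -0.12, -0.095 and 0.078, with 1 of 6 arrays nearest to its own number. With 3 arrays per group these values cannot exclude pairing. With the replicate number as a block the counts were 0 of all genes, 0 of the family and 0 of the pathway in limma. There 1337, 3 and 21 had an unadjusted p under 0.05, and the adjusted p was 0.157 for Slc27a1. Leaving out rows with extra digits gave 0, 0 and 0 (1264, 1 and 15 unadjusted), and setting the 183 values to missing also gave 0, 0 and 0 (1283, 2 and 17 unadjusted). Without both arrays rich in liver transcripts, where the lone chromium restriction array is assumed to vary like the controls, 6 genes, 0 of the family and 0 of the pathway passed (927, 1 and 12 unadjusted). With the liver genes as covariate 53 genes passed, with 3 of the pathway but 0 of the family (1 unadjusted). This covariate mainly sets the liver-rich arrays apart, so its group difference rests mostly on chromium restriction array 2, for every gene. The sign turned for Slc27a2 with the covariate (-0.77) and without both liver-rich arrays (-1.04), for Slc27a5 without both (-0.037) and for Slc27a4 without control array 3. Leaving out 1 array at a time gave -0.17 to 0.011 for Slc27a4 and -0.14 to 0.12 for Acsl4. The sign turned for Acsl4 with array weights (0.026), without chromium restriction array 1 (0.12), without control array 3 (0.053), with the covariate (0.18) and without both liver-rich arrays (0.19). The cause of these changes was not tested. Testing all 33793 probe sets was an alternative chosen after seeing the data, and Slc27a1 (adjusted p = 0.0102) and 3 pathway genes passed there.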
